A study of Homo sapiens with 5 samples.

Results

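U1 and U2 are the small nuclear RNAs (snRNAs) that open spliceosome assembly, and fragments of them were counted here in MCF10A, a human mammary epithelial line that is immortal but not tumorigenic. The deposited tables hold 49965 named small RNAs, and all 190 rows whose names start with RNU1, RNVU1 or RNU2 and a hyphen were taken, 120 of U1 and 70 of U2. A name ending in P was taken as a pseudogene copy and any other name as a functional one. This gave 10 functional names (9 of U1, 1 of U2) and 180 pseudogene names (111 of U1, 69 of U2). The study compared 2 libraries of detached cells, grown on plates covered with 2% poly-HEMA, which keeps cells from sticking, with 3 libraries of attached cells on bare plastic. The time label reads 24 h for the detached and 0 h for the attached libraries, while the design text has both groups cultured for 24 h. All cells had the same medium, with horse serum, epidermal growth factor, insulin, cholera toxin and hydrocortisone. Total RNA (50 µg) was extracted with TRIzol, and RNA of 18 to 24 nt was cut from a gel, so what was counted are fragments and not the full-length snRNAs.

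U1 snRNA is the RNA core of the U1 particle, which recognises the start of an intron through base pairing of the RNA's 5′ end with the splice site. U2 snRNA pairs with the branch site near the end of the intron, and both are made by RNA polymerase II from repeated gene copies. The genome also carries many degenerate copies of both, and the RNVU1 genes are variant U1 copies, some of which are transcribed in human cells.

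Of the copies that held most of the counts, those of U1 are shown first, because they are copies whose sequence departs from the canonical one. RNU1-1, a canonical U1 gene at chr1:16514122-16514285 on the minus strand (GENCODE 29 on GRCh38, as all positions here), has the word that pairs with the 5′ splice site in capitals. In the other U1 copies, capitals mark bases not matched to RNU1-1 in a pairwise alignment.
RNU1-1: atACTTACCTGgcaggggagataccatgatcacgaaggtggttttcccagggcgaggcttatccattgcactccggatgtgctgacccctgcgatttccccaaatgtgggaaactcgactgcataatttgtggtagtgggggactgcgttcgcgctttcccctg
RNU1-36P: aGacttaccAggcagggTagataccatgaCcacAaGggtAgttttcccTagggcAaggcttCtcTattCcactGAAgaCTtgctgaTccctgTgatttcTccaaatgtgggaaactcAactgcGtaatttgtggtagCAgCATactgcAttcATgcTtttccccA
RNU1-57P: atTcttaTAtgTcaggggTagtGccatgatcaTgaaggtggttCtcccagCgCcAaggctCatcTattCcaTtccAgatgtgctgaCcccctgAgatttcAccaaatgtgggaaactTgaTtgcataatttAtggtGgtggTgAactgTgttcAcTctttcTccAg
RNU1-42P: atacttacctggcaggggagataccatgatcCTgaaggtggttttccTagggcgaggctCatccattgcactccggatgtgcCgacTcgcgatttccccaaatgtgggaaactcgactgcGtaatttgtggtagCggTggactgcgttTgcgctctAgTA
RNU1-65P: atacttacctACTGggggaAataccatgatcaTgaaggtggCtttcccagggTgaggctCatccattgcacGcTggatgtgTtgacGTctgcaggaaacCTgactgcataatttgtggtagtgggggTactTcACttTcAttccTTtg
RNVU1-14: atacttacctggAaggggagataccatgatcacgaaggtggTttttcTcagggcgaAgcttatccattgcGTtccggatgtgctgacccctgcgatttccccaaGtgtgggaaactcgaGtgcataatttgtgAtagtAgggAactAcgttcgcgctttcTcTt
Of these, RNU1-36P (chr4:88000237-88000401, plus strand), RNU1-42P (chr17:48949361-48949520, minus strand) and RNU1-65P (chr10:84003332-84003479, plus strand) overlap no other annotated gene. RNU1-57P (chrX:113949917-113950082, plus strand) lies across an intron of the long non-coding RNA gene XACT on the opposite strand. RNVU1-14 (chr1:145281116-145281279, plus strand) lies in an exon of the lincRNA gene AC245014.3 on the same strand. Identity to RNU1-1 over aligned bases was 93.6% for RNU1-42P and 92.0% for RNVU1-14, against 84.9% for RNU1-65P, 83.4% for RNU1-57P and 81.6% for RNU1-36P. The splice-site word ACTTACCTG, searched on both strands, is in 43 of 131 U1 sequences (32.8%) and in 50 of all 1900 snRNA genes (2.6%). RNU1-42P and RNVU1-14 hold it, and RNU1-36P, RNU1-57P and RNU1-65P do not.

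For U2, capitals mark the branch-site word GTAGTA in RNU2-1 and, in both RNU2-1 and RNU2-37P, the 19 bases shared with the miRNA miR-1246. In miR-1246 itself (RefSeq, GRCh38.p14, chr2:176601024-176601042, minus strand) capitals mark the seed, bases 2 to 8.
RNU2-1: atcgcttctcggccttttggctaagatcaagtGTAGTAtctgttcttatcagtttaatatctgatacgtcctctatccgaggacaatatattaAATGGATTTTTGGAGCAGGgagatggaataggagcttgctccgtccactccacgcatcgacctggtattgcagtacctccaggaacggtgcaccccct
RNU2-37P: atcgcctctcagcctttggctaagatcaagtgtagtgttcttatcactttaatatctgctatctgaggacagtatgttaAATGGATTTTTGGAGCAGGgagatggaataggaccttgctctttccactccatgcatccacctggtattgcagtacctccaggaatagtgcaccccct
hsa-miR-1246: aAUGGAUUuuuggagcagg
RNU2-1, the canonical U2 gene (chr17:43233787-43233977, minus strand), lies in an intron of CCDC200. RNU2-37P (chr3:128075073-128075249, minus strand) lies in an intron of RUVBL1, has 92.7% identity to RNU2-1 over aligned bases and carries the miR-1246 stretch whole. The branch-site word, searched on both strands, is in 36 of 70 U2 sequences (51.4%) and in 79 of all 1900 snRNA genes (4.2%).

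Library totals were 16008489 and 10851744 named counts in detached replicates 1 and 2, against 12366253, 8945953 and 10476182 in attached replicates 1, 2 and 3. Human miRNAs held 97.1 to 98.7% of them, with the lowest share in detached replicate 2. Attached replicate 2 stood apart, with Spearman correlations to the other libraries of 0.754 to 0.794 over the 1159 tested rows, against 0.855 to 0.928 among the other 4. It also had the lowest level of the 4 epithelial marker miRNAs, which summed to 82600 and 113500 counts per 1000000 named counts (CPM) in detached and 90790, 40150 and 86490 CPM in attached libraries. The 7 marker miRNAs of blood, muscle, nerve and liver summed to 28.5 and 17.3 CPM in detached and 12.1, 1.57 and 16.5 in attached libraries. The part of these differences in the results below was not tested, and results are given with and without attached replicate 2. Whether the replicates were separate cultures is not stated, so the p-values reflect only the spread among these 5 libraries, and that spread may be technical. In such bulk RNA, fewer cells with a fragment and fewer fragments per cell cannot be told apart.

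U1 and U2 fragments were a small fraction of the small RNA. They took 1318 and 1449 counts in detached replicates 1 and 2, and 810, 573 and 616 counts in attached replicates 1, 2 and 3. In CPM this was 82.3 and 133.5 in detached libraries, against 65.5, 64.1 and 58.8 in attached libraries. Both detached libraries lay above all 3 attached ones. The means were 108 ± 36.2 (SD, n = 2) in detached and 62.8 ± 3.53 (SD, n = 3) in attached cells, a ratio of 1.72, or 1.74 without attached replicate 2. This ratio was not computed with another scaling or without a detached library. With 2 libraries against 3 an exact permutation test allows no p below 0.1 (one-sided), and none was run on this sum. As a share of all named counts, the fragments made up 0.00823% and 0.0134% in detached and 0.00655%, 0.00641% and 0.00588% in attached libraries.

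**Figure D1:**
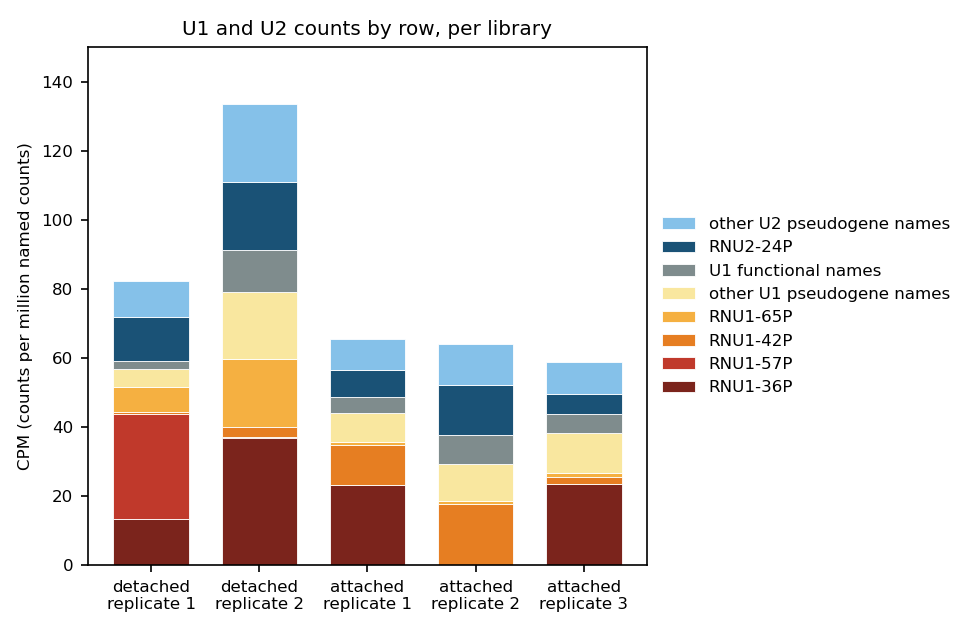
Stacked bars give U1 and U2 counts per 1000000 named counts (CPM) in the 2 detached and the 3 attached libraries, each bar 1 library, split into the 5 leading rows and the remaining classes. The pair of detached bars reaches 82.3 and 133.5, the attached bars 65.5, 64.1 and 58.8, and RNU1-57P fills a large block of detached replicate 1 alone while RNU1-36P is nearly absent from attached replicate 2 (0.112).

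Most of the 190 names received few or no reads. Counts were present for 146 of them and none for 44, and 105 had 1 to 9 counts over all 5 libraries together. At least 10 counts were reached by 41 rows, at least 50 by 16 and at least 100 by 7, and 25 rows had a count in every library. RNU1-36P, RNU2-24P, RNU1-57P, RNU1-42P and RNU1-65P held 3067 of all 4766 counts (64.4%). Their share ran from 59.6 to 78.2% in detached and from 51.7 to 66.4% in attached libraries. Without these 5 rows the level was 18.0 and 54.0 CPM in detached libraries, against 22.0, 31.0 and 26.4 in attached libraries. The 2 detached libraries then lay on either side of all 3 attached ones, so the separation of the summed level rested on the leading rows. RNU1-57P alone was enough for this, with 30.3 of the 82.3 CPM of detached replicate 1. Without that row, detached replicate 1 fell below every attached library.

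Functional U1 names gave few counts. The 9 such rows are all variant U1 genes (RNVU1), and together they had 37 and 131 counts in detached libraries, against 59, 75 and 57 in attached libraries. In CPM this was 2.31 and 12.1 in detached and 4.77, 8.38 and 5.44 in attached libraries. Detached replicate 1 was the lowest and detached replicate 2 the highest of the 5, and the means did not differ beyond this spread (7.19 ± 6.90, SD, n = 2, in detached and 6.20 ± 1.92, SD, n = 3, in attached cells). The log2 ratio of the means was 0.21 and turned to -0.22 with TMM scaling, a scaling by the bulk of the rows.

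RNVU1-14, the functional name with the most counts, had 0.937 and 3.50 CPM in detached and 1.46, 2.01 and 1.72 in attached libraries. The joined row RNVU1-15_RNVU1-1 had 0.750 and 3.78 CPM in detached and 1.21, 0.894 and 1.81 in attached libraries. RNVU1-6 had 0.312 and 3.13 CPM in detached and 0.890, 3.58 and 1.05 in attached libraries. In all 3 the groups overlapped, with detached replicate 1 below detached replicate 2. The other 6 functional U1 rows stayed at or below 9 counts in any library: RNVU1-19, RNVU1-4 and RNVU1-3 at 0 to 9 counts, RNVU1-8 at 0 to 5, and RNVU1-17 and RNVU1-2 at 0 or 1.

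The canonical U1 genes appear in the tables only in rows that join them with pseudogene names, and these 5 rows end in P. The row of RNU1-1 with RNU1-11P had 4 and 6 counts in detached and 3, 9 and 4 in attached libraries. RNU1-4 with RNU1-45P had 1 and 0 counts in detached and 0, 2 and 2 in attached libraries, and RNU1-2 with RNU1-29P 0 and 2 in detached and 0, 1 and 0 in attached libraries. RNU1-3 with RNU1-35P had 1 count in all, in attached replicate 1, and the row of RNVU1-18, RNVU1-7, RNU1-27P and RNU1-28P had none. These genes are known as the main source of cellular U1, and the 5 rows summed to 0.312 and 0.737 CPM in detached and 0.324, 1.34 and 0.573 in attached libraries. RNU1-1, RNU1-2, RNU1-3, RNU1-4 and RNVU1-18 have the same 164 nt in GENCODE. So do RNU1-27P and RNU1-28P despite their P, and reads cannot be told apart between these genes.

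RNU2-1, the 1 functional U2 name, had 0 counts in all 5 libraries. For counts given to that name, the floor of 3 counts set for a count of 0 equals 0.187 to 0.335 CPM per library. This floor covers counting error only, and replicates differed by more than that. It sets no limit on fragments of the RNU2-1 gene, because every 18-base stretch of that gene also lies in another snRNA gene. How reads that match several names were counted is not given. RNU2-2P, an expressed human U2 gene despite its P, also had 0 counts in all 5. All U2 counts therefore lay on pseudogene names. They came to 373 and 460 counts in detached and 208, 236 and 159 in attached libraries. In CPM this was 23.3 and 42.4 in detached and 16.8, 26.4 and 15.2 in attached libraries, with attached replicate 2 above detached replicate 1. The means were 32.8 ± 13.5 (SD, n = 2) in detached and 19.5 ± 6.05 (SD, n = 3) in attached cells, a ratio of 1.69, or 2.05 without attached replicate 2.

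Pseudogene names of U1 were the largest class. Their 111 rows held 908 and 858 counts in detached and 543, 262 and 400 in attached libraries, or 56.7 and 79.1 CPM in detached and 43.9, 29.3 and 38.2 in attached libraries. Both detached libraries lay above all attached ones, at means of 67.9 ± 15.8 (SD, n = 2) in detached and 37.1 ± 7.37 (SD, n = 3) in attached cells, a ratio of 1.83. RNU1-57P alone carried detached replicate 1: without it the class stood at 26.4 and 78.9 CPM in detached libraries, and detached replicate 1 fell below every attached library. Without all 4 leading U1 rows it stood at 5.25 and 19.4 CPM in detached and 8.33, 10.7 and 11.7 in attached libraries, and the groups overlapped.

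Pseudogene names took most U1 counts in every library. Their share of U1 counts was 96.1% (95% exact Clopper-Pearson interval 94.6 to 97.2%) and 86.8% (84.5 to 88.8%) in detached replicates 1 and 2. In attached replicates 1, 2 and 3 it was 90.2% (87.5 to 92.5%), 77.7% (72.9 to 82.1%) and 87.5% (84.1 to 90.4%). The means, 91.4 ± 6.60% (SD, n = 2) in detached and 85.2 ± 6.56% (SD, n = 3) in attached cells, differed by 6.26 percentage points, less than 1 SD. Single libraries decided this size: the difference was 10.9 points without detached replicate 2, 1.60 without detached replicate 1 and 2.56 without attached replicate 2. With the 5 joined rows counted as functional, the share was 95.56 and 85.95% in detached and 89.53, 74.18 and 86.21% in attached libraries. The difference of the means was then 7.44 points. For U2 the share was 100% in all 5, with lower interval bounds from 97.7 to 99.2%. This follows from the 0 counts of RNU2-1, the only functional U2 name, which has no 18-base stretch of its own. The origin of the U2 fragments by gene can therefore not be read from that share. U2 names made up 28.3 and 31.8% of the U1 and U2 counts in detached and 25.7, 41.2 and 25.8% in attached libraries. Such intervals cover counting error only, because the libraries carry no molecular identifiers and reads need not stand for separate molecules.

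The question of which single fragments differed between detached and attached cells was tested over all named RNAs. After the low-count filter 1159 rows were tested, among them 13 of the 190 U1 and U2 rows: 3 functional U1, 5 pseudogene U1 and 5 pseudogene U2 names. With edgeR's quasi-likelihood test and Benjamini-Hochberg adjustment 0 of the 13 passed an adjusted p under 0.05 in either direction, and neither did any other row (0.0% of 1159). At an unadjusted p under 0.05 the same test had 1 of the 13 higher and 0 lower in detached cells, against 7.94% of all rows higher and 1.21% lower. DESeq2 gave an adjusted p to 44 U1 and U2 rows. It called 1 of them higher and 0 lower, against 0.958% and 0.228% of its 2192 rows with an adjusted p. EdgeR without the low-count filter tested 146 U1 and U2 rows. It called 2 of them higher and 0 lower, against 0.348% and 0.133% of 9771. Limma-voom called 0 of the 13 in either direction. Without attached replicate 2, edgeR tested 12 of these 13 rows, and RNU1-47P in place of RNU2-70P, and called 0 of them, with 0.892% of 1121 rows higher and 0.0% lower, and DESeq2 called 1 U1 or U2 row higher and 0 lower, with 1.94% and 0.432% of 1851 rows.

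RNU1-65P was the row at issue in each case but 1. It had 115 and 213 counts in detached libraries, against 11, 7 and 10 in attached libraries, or 7.18 and 19.6 CPM against 0.890, 0.783 and 0.955. Both detached libraries lay far above the narrow band of the 3 attached ones. Its log2 fold change was 3.92 ± 0.76 (SE), with an adjusted p of 0.0775 by edgeR's quasi-likelihood test. Without attached replicate 2 it was 3.85 ± 0.75 (SE, adjusted p = 0.0751, edgeR). DESeq2 gave 3.53 ± 0.89 (SE) with an adjusted p of 0.00803, and edgeR without the low-count filter an adjusted p of 0.0224. Over the 13 alternatives run for this row the adjusted p ranged from 0.00107 to 0.766. The authors' deposited table lists it at a log2 fold change of 3.11 ± 0.78 (SE) with an adjusted p of 0.0126. It was the only 1 of the 141 U1 and U2 names with a p-value there to have an adjusted p under 0.05, and many of the 141 had no adjusted p. Of the 2991 rows with an adjusted p in the authors' deposited table, 0.568% were called higher and 0.0334% lower in detached cells.

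RNU1-57P, the second row called without the filter, was counted almost entirely in 1 library. It had 485 and 2 counts in detached replicates 1 and 2, against 0 in all 3 attached libraries. Detached replicate 1 held 99.6% of its counts, so its call rested on that library. The low-count filter left it untested with all 5 libraries, and the authors' deposited table gives an adjusted p of 0.998.

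RNU1-42P lay the other way. It had 11 and 33 counts in detached libraries, against 142, 158 and 23 in attached libraries, or 0.687 and 3.04 CPM in detached and 11.5, 17.7 and 2.20 in attached libraries. Attached replicate 3 fell between the 2 detached libraries, so the groups overlapped. The log2 fold change was -2.49 ± 1.11 (SE), with an adjusted p of 0.546 by edgeR, and -1.90 ± 1.01 (SE) without attached replicate 2. The authors' deposited table gives -2.50 ± 0.87 (SE) with an adjusted p of 0.329.

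RNU1-36P, the row with the most counts, showed how much 1 library can weigh. It had 213 and 400 counts in detached libraries, against 287, 1 and 245 in attached libraries, or 13.3 and 36.9 CPM in detached and 23.2, 0.112 and 23.4 in attached libraries. Attached replicate 2 was nearly empty of it, and the other attached libraries lay between the 2 detached ones. The log2 fold change was 0.69 ± 1.40 (SE), and 0.11 ± 0.65 (SE) without attached replicate 2.

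RNU2-24P held the largest share of U2 counts. It had 206 and 215 counts in detached libraries, against 98, 130 and 62 in attached libraries, or 12.9 and 19.8 CPM in detached and 7.93, 14.5 and 5.92 in attached libraries. Attached replicate 2 lay above detached replicate 1, and the groups were separated without it. The log2 fold change was 0.79 ± 0.71 (SE, adjusted p = 0.866, edgeR), and 1.24 ± 0.57 (SE, adjusted p = 0.419, edgeR) without attached replicate 2. RNU2-58P, in an intron of SKA2, had 1.62 and 2.30 CPM in detached and 0.970, 0 and 1.43 in attached libraries. Here the detached libraries lay just above the attached ones, at a log2 fold change of 1.26 ± 1.10 (SE), or 0.70 ± 0.61 (SE) without attached replicate 2, which had no count of it.

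**Figure D2:**
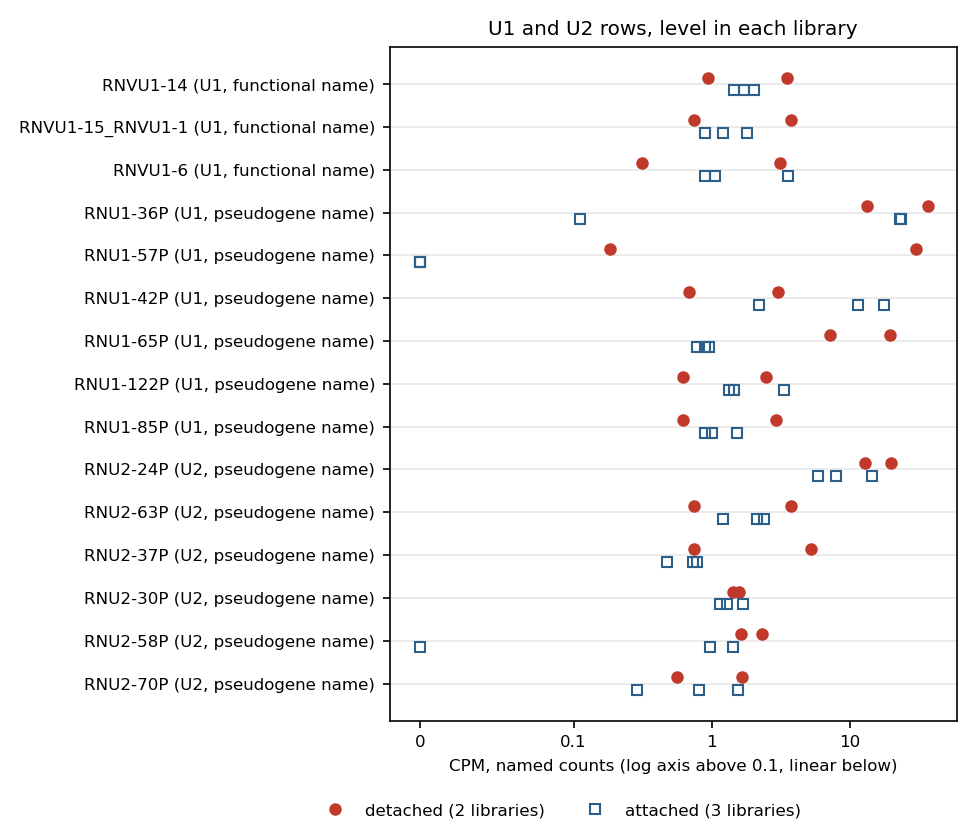
Points give the level of each tested row, and of RNU1-57P and RNU2-37P, in counts per 1000000 named counts (CPM) on an axis that is linear below 0.1 and logarithmic above, with filled circles for the 2 detached and open squares for the 3 attached libraries. RNU1-65P has its detached circles at 7.18 and 19.6 and its attached squares at 0.783 to 0.955, while in RNVU1-14, RNVU1-15_RNVU1-1, RNU1-85P and RNU2-63P the pair of circles straddles the squares.

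Among the remaining tested rows the detached libraries straddled the attached ones or overlapped with them. RNU2-63P had 0.750 and 3.78 CPM in detached and 1.21, 2.12 and 2.39 in attached libraries, and RNU1-122P 0.625 and 2.49 in detached and 1.46, 3.35 and 1.34 in attached libraries. RNU1-85P, in an intron of TEX14, had 0.625 and 2.95 CPM in detached and 0.890, 1.01 and 1.53 in attached libraries. RNU2-30P, in an intron of ZYG11B, was level, at 1.44 and 1.57 CPM in detached and 1.29, 1.68 and 1.15 in attached libraries. RNU2-70P had 0.562 and 1.66 CPM in detached and 0.809, 1.57 and 0.286 in attached libraries. Of the 13 tested rows, 2 (RNU1-65P and RNU2-58P) had both detached libraries above all attached ones, against 20.9% of all tested rows, and 0 had both below, against 7.25%. The log2 fold change was positive in 10 and negative in 3 of the 13, with a median of 0.35, while 62.9% of all 1159 rows were positive with a median of 0.30.

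Scaling and single libraries moved this balance. With TMM scaling, under which the median log2 fold change of all rows was 0.04 in place of 0.30, 6 of the 13 were positive with a median of -0.03. Without attached replicate 2, 12 of the 13 rows then tested were positive, with a median of 0.54 against 0.24 for all rows. Among the 12 rows tested both ways, 11 were positive without that library and 9 with it, at medians of 0.50 and 0.49. Detached replicate 2 weighed most, over rows that again differ with the filter: without it 5 of 17 tested rows were positive (median -0.86, all rows -0.17), and without detached replicate 1 17 of 19 were (median 1.07, all rows 0.51).

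**Figure D3:**
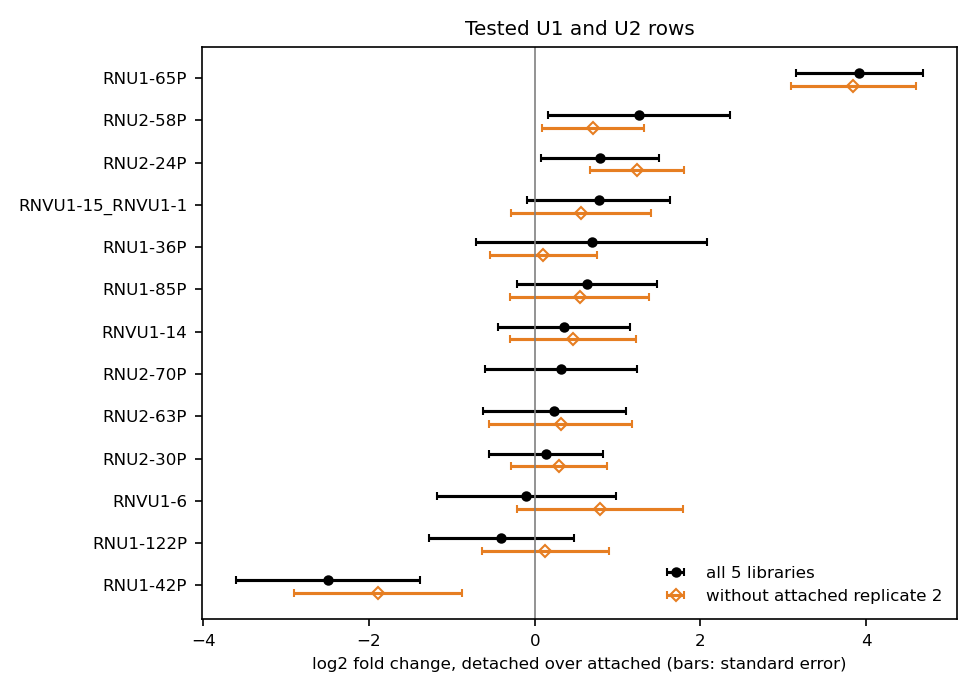
Each of the 13 tested rows is shown with its log2 fold change, detached over attached, and a bar of 1 standard error, from all 5 libraries (filled circles) and without attached replicate 2 (open diamonds; none for RNU2-70P, not tested there). RNU1-65P lies at 3.92 and 3.85, RNU1-42P at -2.49 and -1.90, and the others between -0.40 and 1.26 in the fit of all 5 libraries.

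The rows not tested with all 5 libraries were too thin for more than a description. RNU2-37P, the row with the most counts in this group after RNU1-57P, had 12 and 57 counts in detached and 9, 7 and 5 in attached libraries, so detached replicate 2 alone was high. RNU1-47P was high in detached replicate 2 as well, with 2 and 35 counts in detached and 11, 1 and 2 in attached libraries. Without attached replicate 2 it passed the filter, at a log2 fold change of 1.55 ± 1.32 (SE, adjusted p = 0.737, edgeR). RNU1-120P had 4 and 19 counts in detached and 7, 6 and 9 in attached libraries, and RNU1-125P 2 and 7 in detached and 1, 4 and 5 in attached libraries. Among U2 names RNU2-15P had 6 and 13 counts in detached and 3, 6 and 2 in attached libraries, RNU2-44P 7 and 8 in detached and 4, 0 and 1 in attached libraries, and RNU2-55P 4 and 6 in detached and 0, 2 and 5 in attached libraries. RNU2-65P was lower in both detached libraries in CPM, with 3 and 3 counts in detached and 6, 4 and 4 in attached libraries. Of all 146 rows with a count, 17 had both detached libraries above and 4 both below every attached one. Only 2 and 0 of these passed the low-count filter, where the shares over all tested rows were 20.9% and 7.25%. The share over all rows with a count, filtered or not, was not computed, so the 17 and 4 have no baseline and give no direction.

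Copies with little sequence of their own received few counts. For each row of a single name, the share of its 18-base words (the shortest selected length) found in no other of the 1900 snRNA genes was computed, for the 177 such rows with a GENCODE sequence. Of the 14 rows under 25% own words 4 had a count, 14 counts in all, and of the 12 rows from 25 to 50% 7 had a count, 40 in all. The 59 rows from 50 to 75% held 1369 counts, 50 of them with a count, and the 92 rows at 75% or more held 3201, 78 of them with a count. The median count per row was 0, 1, 3 and 3 from the lowest to the highest of these classes, so the upper 2 did not differ in it over both families together. By family, the median of these upper classes went from 2 to 3 in U1 and from 6.5 to 3 in U2. Without the 5 leading rows the upper 2 classes held 646 and 857 counts. RNU2-1 has 0% own words and RNU2-2P 2.3%, while RNU1-36P has 85.8%, RNU1-57P 84.6%, RNU2-24P 83.3%, RNU1-65P 68.7% and RNU1-42P 55.2%. RNVU1-14 has 61.9% and RNVU1-6 64.6%, within the range of the leading U1 rows, and RNVU1-4 36.1%. How reads that match several names were counted is not given in the sources used here, so the part of that step in the low counts of canonical names was not tested. The same limit holds for every class sum and share above, which describe names and not the genes the fragments came from.

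**Figure D4:**
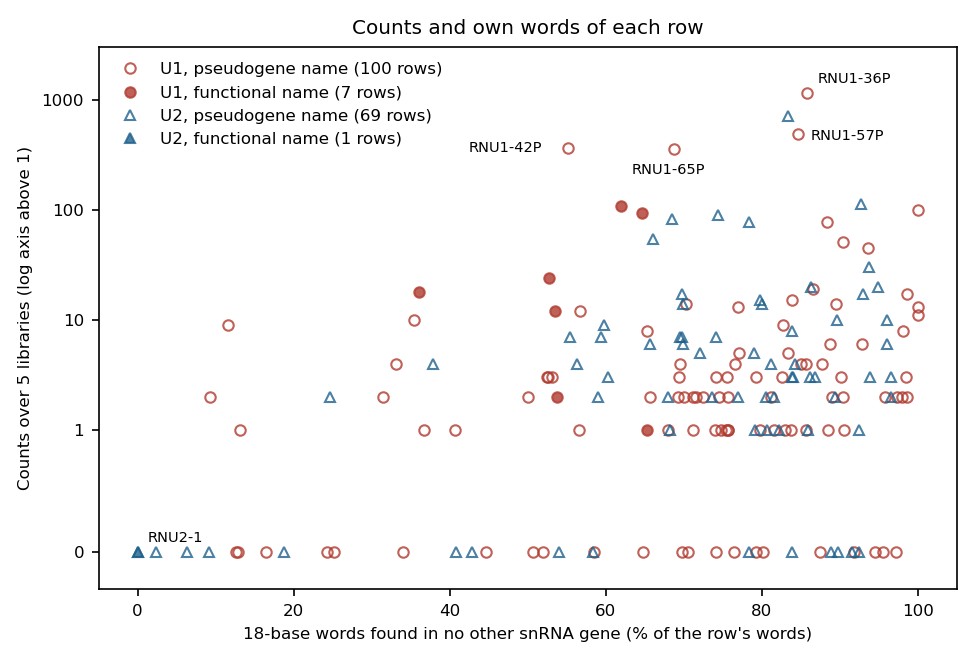
Each point is 1 of 177 rows of a single name, placed by the share of its 18-base words found in no other snRNA gene (percent, horizontal) and its counts over all 5 libraries (vertical, logarithmic above 1). The 14 rows under 25% hold 14 counts, RNU2-1 sits at 0, and RNU1-36P, RNU2-24P (not labelled) and RNU1-57P stand at the top right.

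By position in the genome the totals followed the leading rows. The 80 rows that overlap no other annotated gene held 3161 counts, the 63 rows in an intron on the same strand 637, the 24 rows with a gene on the opposite strand only 646 and the 10 rows in an exon on the same strand 180. A count was present in 67 of the 80, 49 of the 63, 18 of the 24 and 5 of the 10. Without the 5 leading rows these classes held 581, 637, 159 and 180 counts, so the rows outside other genes no longer held the most. Reads of a host gene and of the copy inside it on the same strand cannot be told apart from these counts.

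The miRNA miR-1246 shares its whole sequence with U2. Its 19 nt are found in RNU2-1, RNU2-33P, RNU2-37P, RNU2-48P, RNU2-61P, RNU2-6P and RNU2-7P, and 17 or 18 of them in 4 more U2 copies. The miR-1246 row had 2475 and 2230 counts in detached and 42, 1077 and 70 in attached libraries, or 154.6 and 205.5 CPM in detached and 3.40, 120.4 and 6.68 in attached libraries, more than all U2 names together in both detached libraries and in attached replicate 2. Its log2 fold change was 2.05 ± 1.35 (SE, adjusted p = 0.728, edgeR), and 5.16 ± 0.71 (SE, adjusted p = 0.0332, edgeR) without attached replicate 2, and over the alternatives run its adjusted p ranged from 1.04e-13 to 0.999. RNU2-37P, which carries the same 19 bases, had 0.750 and 5.25 CPM in detached and 0.728, 0.783 and 0.477 in attached libraries, so attached replicate 2 was not raised in it. Which of its bases these counts cover is not known, so this row cannot tell where the miR-1246 counts came from. miR-1290, another miRNA with U2-like sequence, had 5 and 0 counts in detached and 0, 2 and 0 in attached libraries.

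The other spliceosomal and related snRNAs (U4, U5, U6, U7, U11, U12, U4atac and U6atac) were more abundant than U1 and U2 in every library. Of their 1571 rows 739 had counts and 43 were tested, and 0 were called in either direction by edgeR with all 5 libraries. EdgeR without attached replicate 2 called 2 higher and 0 lower, where 0.892% and 0.0% of all 1121 rows were called. DESeq2 called 3 higher and 0 lower, where 0.958% and 0.228% of all 2192 rows with an adjusted p were called. The 3 were RNU5E-1_RNU5E-10P, at 37.8 and 77.6 CPM in detached and 2.02, 1.68 and 2.39 in attached libraries, RNU4-78P, at 11.5 and 41.2 in detached and 0.243, 1.57 and 0.191 in attached libraries, and RNU6-160P, with 144 and 41 counts in detached and 0, 0 and 1 in attached libraries. In each, both detached libraries lay above all attached ones, as in 20.9% of all rows tested by edgeR. These 3 were picked by their call in the same data, so the separation adds nothing to that call. All 1571 rows together summed to 300.0 and 1079 CPM in detached and 263.3, 361.3 and 274.5 in attached libraries, a ratio of 2.30 against 1.72 for U1 and U2. In this sum detached replicate 1 lay among the attached libraries, whereas for U1 and U2 it lay above them. For U1 and U2 this position rested on RNU1-57P, which gave 485 of the 1318 counts of that library. Without the 5 leading rows detached replicate 1 lay below all attached libraries, at 18.0 CPM. U5, a core component of the tri-snRNP, had 92.8 and 566.6 CPM in detached and 38.3, 71.8 and 66.1 in attached libraries. The difference between the ratios of the families was not tested.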

How the data were processed

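Small RNA-seq libraries of 5 MCF10A samples were analysed, grouped by the treatment label. The deposited tables hold raw read counts per named RNA, and 5 summary rows of the counting program total 0. Per the submitters' processing notes, the build was hg38 and DESeq2 was used, with no version or role, while the aligner and the counter are not given in the sources used. The authors' deposited comparison table also has 5 columns of per-library values, which were not used, and holds log2 fold changes with standard errors and raw and adjusted p-values.

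Levels are counts per 1000000 of all named counts (CPM), and counts entered the two-sided quasi-likelihood F test of edgeR 4.0.16 (R 4.3.3, detached over attached) with that total as library size, after filterByExpr (minimum count 10, minimum total 15). Benjamini-Hochberg adjustment ran over all rows tested, and an adjusted p under 0.05 was a call. Standard errors were computed as |log2 fold change|/√F. Alternatives were TMM, human miRNA totals, DESeq2 1.42.0, limma-voom (limma 3.58.1), no filter, a stricter filter (10 CPM in 2 libraries), identical rows collapsed, a replicate block and leaving out each library. DESeq2 without attached replicate 2, and joined rows counted as functional, were chosen after seeing the data.

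Depth was 8945953 to 16008489 counts per library, and 3 counts, set as the floor for a count of 0 (counting error only), equal 0.187 to 0.335 CPM. Between replicates of a group the chi-square statistic was 484 to 2660 times its degrees of freedom, and no library was treated as a duplicate.

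Positions and snRNA sequences come from GENCODE 29 (201 of 205 names in the rows matched), and miR-1246 from RefSeq. Rows that join several names were kept as 1 row, classed by their last letter. Named were all functional names with a count, the 10 pseudogene names of each family with the highest mean level, the 5 smallest p per direction, the 2 highest rows of each other snRNA family, miR-1246 and miR-1290, of which the other snRNA rows are mostly given as sums. The canonical genes in joined rows, RNU2-2P and the other snRNA rows called by an alternative were named after their values were seen. The sequence of RNU2-24P is not reported here. Members and lists were chosen with earlier results of these data known.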

Additional observations from a re-analysis of the deposited data

How the results depend on the processing

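No U1 or U2 row was called lower under any alternative run. Called higher were 1 with DESeq2, 2 without the filter and 1 with DESeq2 without attached replicate 2, against 0 with filtered edgeR on all 5 libraries. Over all rows these settings called 21, 34 and 36 higher and 5, 13 and 8 lower, and leaving out single libraries 0 to 10 higher. Of the other snRNAs they called 3, 3 and 4 higher, and leaving out single libraries 0 to 2. The cause of these differences was not tested. The labels link replicates 1 and 2 of the groups by number only, and whether they were paired is not stated. Their deviations from the group means correlated at -0.24 and -0.18. With 2 detached libraries these deviations mirror each other, so the values cannot decide on pairing. The fit with the replicate block called 0 rows, but the block uses up most of the degrees of freedom.

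The log2 ratio of summed levels was 0.21 for functional U1 names, from -1.42 (without detached replicate 2) to 0.96 over single libraries left out, and 0.76 for U2 pseudogene names, from 0.26 (without detached replicate 2) to 1.12. The log2 ratio of U1 pseudogene names was 0.87, and ran from 0.60 (TMM scaling) to 1.09 (without detached replicate 1) over its alternatives. For U2 pseudogene names TMM scaling gave 0.42.

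Signs turned in uncalled rows. With TMM, RNU2-30P was at -0.12, RNU2-63P at -0.15, RNU2-70P at -0.071 and RNVU1-14 at -0.026. DESeq2 gave -0.16, -0.21, -0.13 and -0.083 for the same rows, and limma-voom -0.14 for RNU2-63P. The replicate block gave RNU2-70P -0.20. Over single libraries left out, log2 fold changes ran from -1.69 to 0.28 for RNU1-122P, -0.23 to 1.24 for RNU1-36P, -0.86 to 1.36 for RNU1-85P, -1.33 to 0.98 for RNU2-63P, -0.64 to 0.90 for RNU2-70P, -0.87 to 1.01 for RNVU1-14, -0.80 to 1.52 for RNVU1-15_RNVU1-1 and -2.51 to 0.79 for RNVU1-6. DESeq2 without attached replicate 2 gave -0.25 for RNU1-36P, -0.046 for RNU2-63P and 0.38 for RNVU1-6.

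Depth limits most rows: 105 of 146 rows with counts had under 10 reads in all. RNU2-1 had none under any setting, so functional U2 has no ratio. The stricter filter kept 3 U1 and U2 rows, and RNU1-65P was not among them.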
